A study of Mus musculus with 13 samples.

Results

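Day 7 Stella-positive embryoid body cells, which the submitters label in vitro primordial germ cells, were compared with the unsorted embryonic stem cells (ESC) from the same series across all genes of the Affymetrix Mouse430_2 array. The members were chosen by their titles alone and make up 6 of the 13 arrays, with 4 of day 7 Stella-positive cells and 2 of unsorted ESC. All cells were mouse cells with a green fluorescent reporter of Stella, the protein made by Dppa3. The day 7 Stella-positive cells were sorted as reporter-positive from embryoid bodies, aggregates in which stem cells differentiate, at day 7. The unsorted ESC carried the same reporter and were taken as a whole population, so they hold reporter-positive and reporter-negative cells. The other 7 arrays were 2 of day 7 Stella-negative cells, 2 of Stella-positive ESC and 3 of Stella-negative ESC, and they entered the fit to estimate the spread. The labels used here give no strain, sex, culture medium, feeder layer or added agent, and do not say if each replicate was a culture of its own, so the p-values speak of array-to-array spread, part or all of which can be technical. Because the sort used the Stella reporter, a higher Dppa3 signal in the sorted cells is a check of the sort and not a finding.

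Primordial germ cells are the founders of eggs and sperm. In the mouse embryo they arise from the epiblast in response to BMP signals, switch on Prdm1, Prdm14 and Tfap2c, keep or regain the core pluripotency factors and begin to express Dppa3. Later, on reaching the gonad, they switch on germ cell genes such as Dazl and Ddx4, and cells that enter meiosis express Stra8 in response to retinoic acid. ESC already express Pou5f1, Sox2 and Nanog, and a part of an ESC population also expresses Dppa3, so these genes do not by themselves tell germ cells from stem cells.

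Every array was scaled to a common trimmed mean of 105, and the values below are these scaled signals, in arbitrary units that allow 1 probe set to be compared between arrays but not 1 gene with another. The deposited signals had trimmed means of 82.9, 71.7, 29.1 and 8.48 on day 7 Stella-positive arrays 1 to 4, against 80.8 and 78.1 on the unsorted ESC arrays. The 3′/5′ signal ratio of the Gapdh control probe sets, which rises as RNA or its labelled copy is shortened, was 1.32, 1.23, 1.65 and 2.09 on the day 7 Stella-positive arrays and 0.845 and 0.822 on the unsorted ESC arrays. It was 3.03 and 3.18 on the day 7 Stella-negative arrays. The same ratio for actin was 2.04, 2.17, 4.89 and 5.16 on the day 7 Stella-positive arrays, 5.48 and 5.85 on the day 7 Stella-negative arrays and 1.23 and 1.18 on the unsorted ESC arrays. Arrays 3 and 4 thus had weaker signal and higher ratios than arrays 1 and 2, a division that the Lin28a, endoderm and heat shock values below share, and its part in them was not tested. The unsorted ESC were hybridised in a run of their own and all day 7 arrays together on another day, so culture and hybridisation day cannot be told apart in any result below. The arrays correlated at 0.850 to 0.951 within the day 7 Stella-positive group and at 0.949 within the unsorted ESC (Pearson, across probe sets, log2 scale).

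In limma's moderated test, fitted across 30023 probe sets with Benjamini-Hochberg adjustment and a threshold of 0.05, 972 probe sets (3.24%) were higher in day 7 Stella-positive cells and 1123 (3.74%) were lower. Of these, 587 were at least 2-fold higher and 866 at least 2-fold lower on the log2(signal + 10.5) scale, which understates the change of dim probe sets. With each gene represented by its brightest probe set, 510 of 14007 genes (3.64%) were higher and 473 (3.38%) lower, and the median difference over all genes was 0.06. The 4 day 7 Stella-positive arrays lay above both unsorted ESC arrays for 15.7% of genes and below both for 12.5%. These shares of all genes stand beside every list count and every statement below that the groups did not overlap. The counts rested on both stem cell arrays: 389 probe sets were higher and 341 lower without unsorted ESC array 1, and 358 higher and 511 lower without array 2. With the Gapdh 3′/5′ ratio as a covariate, 290 probe sets were higher and 191 lower. That ratio was 0.803 to 0.869 on the ESC arrays of all groups and 1.23 to 3.18 on all day 7 arrays. This fit, wherever it is given below, therefore cannot separate the ratio from day 7 against ESC. Of the called probe sets 46.4% were higher, and centring each array on its median instead of its trimmed mean left 21.4% of the calls higher (289 higher and 1062 lower) and moved the median difference of all probe sets to -0.16, against 0.04 with the trimmed mean.

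**Figure D1:**
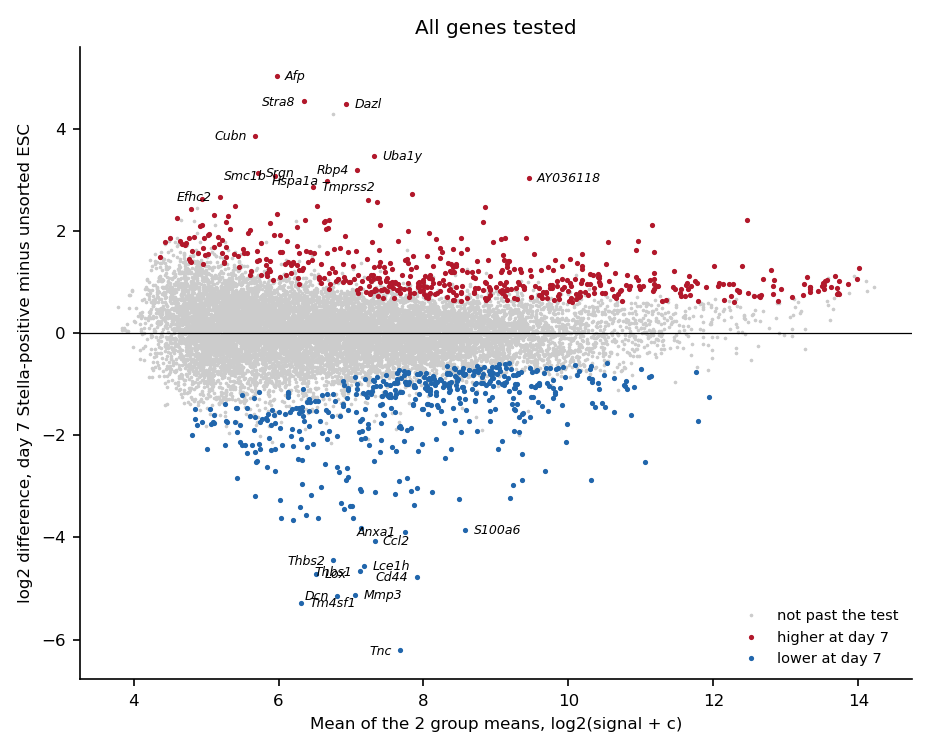
Each point is 1 of 14007 genes, with the mean of the 2 group means on the horizontal axis (log2(scaled signal + 10.5)) and the log2 difference, day 7 Stella-positive minus unsorted ESC, on the vertical axis. Red points are genes called higher and blue points genes called lower at an adjusted p under 0.05, and the 12 largest called rises and 12 largest called falls without overlap between arrays are named, with Stra8, Dazl and Afp at the top and Tnc, Tm4sf1 and Dcn at the bottom.

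Genes of the early germ cell programme were divided. Of 15 tested members, 2 were higher, Dppa3 and Tfap2c, 1 was lower, Ifitm3, and the list's median log2 difference was -0.10, against 0.06 over all genes. Apart from Dppa3, whose level the sort selected for, 1 of 14 was higher and 1 lower, against 3.64% and 3.38% of all genes. Dppa3 read 807, 728, 1078 and 1138 on the day 7 Stella-positive arrays, against 299.5 and 324 on the unsorted ESC arrays (log2 difference 1.53 ± 0.26, SE, adjusted p = 0.00213, limma), and all 4 sorted arrays lay above both unsorted ones. In Stella-positive ESC, sorted on the same reporter, Dppa3 read 941 and 1473, within or above the range of the day 7 Stella-positive arrays. Tfap2c, a transcription factor that germ cell specification requires, read 789, 744, 516 and 494 on the day 7 Stella-positive arrays, against 212 and 194 on the unsorted ESC arrays (1.57 ± 0.25, adjusted p = 0.00127, limma). All 4 day 7 Stella-positive arrays were above the unsorted ESC, and a second Tfap2c probe set passed the test in the same direction at 1.14 ± 0.31, while another differed by 0.70 ± 0.38 and did not pass. Ifitm3, a membrane protein known as an early germ cell marker that interferon also induces, read 1396, 1364, 864 and 771 on the day 7 Stella-positive arrays, against 3791 and 2732 on the unsorted ESC arrays (-1.59 ± 0.26, adjusted p = 0.0019, limma). The groups did not overlap.

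The other specification genes did not pass the test. Prdm1, a repressor of the somatic programme, read 153, 162, 139 and 112 on the day 7 Stella-positive arrays and 215 and 144 on the unsorted ESC arrays, with a log2 difference of -0.31 ± 0.26, and the groups overlapped. Prdm14, which acts with it, read 260, 254, 192 and 204 on the day 7 Stella-positive arrays, all above the 128 and 121 of the unsorted ESC, with a difference of 0.81 ± 0.31 (adjusted p = 0.132, limma). Over all genes, 15.7% had all 4 arrays above both unsorted ESC arrays. The receptor Kit differed by -0.02 ± 0.26 at its brightest probe set, or 0.03 with quantile normalization, while a dimmer Kit probe set was lower, with -1.13 ± 0.26 (adjusted p = 0.0159, limma). Dnd1, an RNA-binding protein needed for germ cell survival, differed by -0.09 ± 0.31, and Alpl, the tissue-nonspecific alkaline phosphatase that stains germ cells and stem cells alike, by 0.09 ± 0.35, or -0.11 with median centring. For Lin28a, which blocks let-7 maturation, the brightest probe set read 536, 526, 82.5 and 97.7 on the day 7 Stella-positive arrays and 757 and 971 on the unsorted ESC arrays (-1.90 ± 0.56, adjusted p = 0.0513), and its other probe set differed by -0.36 ± 0.31. Arrays 3 and 4 carried the low Lin28a values.

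Genes of the later germ cell and meiotic programme were higher in part. Of 29 tested members, 10 were higher and 0 lower, against 3.64% and 3.38% of all genes. The median log2 difference was 0.90, against 0.06 over all genes. Dazl, an RNA-binding protein of germ cells that licenses later development, read 453, 520, 867 and 512 on the day 7 Stella-positive arrays, against 3.93 and 35.3 on the unsorted ESC arrays (4.49 ± 0.39, adjusted p = 1.09e-05, limma). A second Dazl probe set read 266, 300.1, 535 and 528 on the day 7 Stella-positive arrays, against 52.3 and 56.3 on the unsorted ESC arrays (2.62 ± 0.34). The groups lay far apart at both probe sets, but the size of the difference depended on the probe set. Stra8, required for entry into meiosis, read 242, 228, 635 and 613 on the day 7 Stella-positive arrays, against 4.37 and 8.62 on the unsorted ESC arrays (4.55 ± 0.40, adjusted p = 1.09e-05, limma). Smc1b, the meiotic form of a cohesin subunit, read 177, 155, 133 and 227 on the day 7 Stella-positive arrays, against 16.1 and 6.36 on the unsorted ESC arrays (3.09 ± 0.55, adjusted p = 0.00312, limma). The groups did not overlap for any of these 3 genes. In bulk samples of this kind, more cells that express a gene and more RNA per cell cannot be told apart.

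The remaining 7 members that passed are listed by role, and they were picked out after their values were seen because the naming rule stops at 3 members per list. Syce3 (2.30 ± 0.48) and Syce1 (1.07 ± 0.29) encode parts of the synaptonemal complex, which joins paired chromosomes in meiosis. Stag3 (1.62 ± 0.39) encodes another meiotic cohesin subunit. Gtsf1 (1.91 ± 0.38) and Rnf17 (1.14 ± 0.26) act in the germ line with the piRNA pathway or in germ cell granules. Tex14 (1.51 ± 0.35) is required for the bridges between dividing germ cells, and Dmrt1 (1.38 ± 0.37) is a transcription factor of germ cells and the testis. The adjusted p of these 7 genes lay between 0.00571 and 0.0323.

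Several well-known germ cell genes did not pass. Ddx4, the germ line RNA helicase also called Vasa, read 103, 121, 71.4 and 71.8 on the day 7 Stella-positive arrays and 45.9 and 55.4 on the unsorted ESC arrays (0.72 ± 0.34, adjusted p = 0.239, limma). Mael, a piRNA pathway gene, read 127, 117, 68.5 and 72.2 on the day 7 Stella-positive arrays and 22.1 and 62.2 on the unsorted ESC arrays (1.09 ± 0.45, adjusted p = 0.166). Both genes were above the unsorted ESC on all 4 arrays, as were 15.7% of all genes, and arrays 1 and 2 were the higher ones. Sycp3, a core synaptonemal protein, read 364, 300.0, 135 and 135 on the day 7 Stella-positive arrays and 205 and 55.6 on the unsorted ESC arrays (0.90 ± 0.45), and the groups overlapped. Of the 2 marker genes given for these cells, Dppa3 follows from the sort and is shared with Stella-positive ESC, while Dazl exceeded both unsorted ESC arrays on all 4 day 7 Stella-positive arrays. The other germ cell markers, Ddx4 and Mael, did not pass the test.

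The day 7 Stella-negative cells and the Stella-positive ESC place these levels. The comparisons share the 4 day 7 Stella-positive arrays, so they are not independent of each other. In day 7 Stella-negative cells, Dazl read 155 and 193 and Stra8 94.2 and 88.4, between the day 7 Stella-positive and the unsorted ESC values. The day 7 Stella-positive cells were higher than the Stella-negative ones by 1.66 for Dazl (adjusted p = 0.00831, limma) and by 1.95 for Stra8 (adjusted p = 0.00352). Smc1b read 12.04 and 16.8 in day 7 Stella-negative cells, near its level in unsorted ESC. Against Stella-positive ESC, which matched the day 7 cells in Dppa3, the differences were 3.84 for Dazl, 3.11 for Stra8 and 2.66 for Smc1b, all past the test. Among all 29 members, 12 were higher and 0 lower against day 7 Stella-negative cells, where 10.2% of genes were higher and 9.07% lower, and 12 were higher and 2 lower against Stella-positive ESC, where 9.02% were higher and 6.8% lower.

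**Figure D2:**
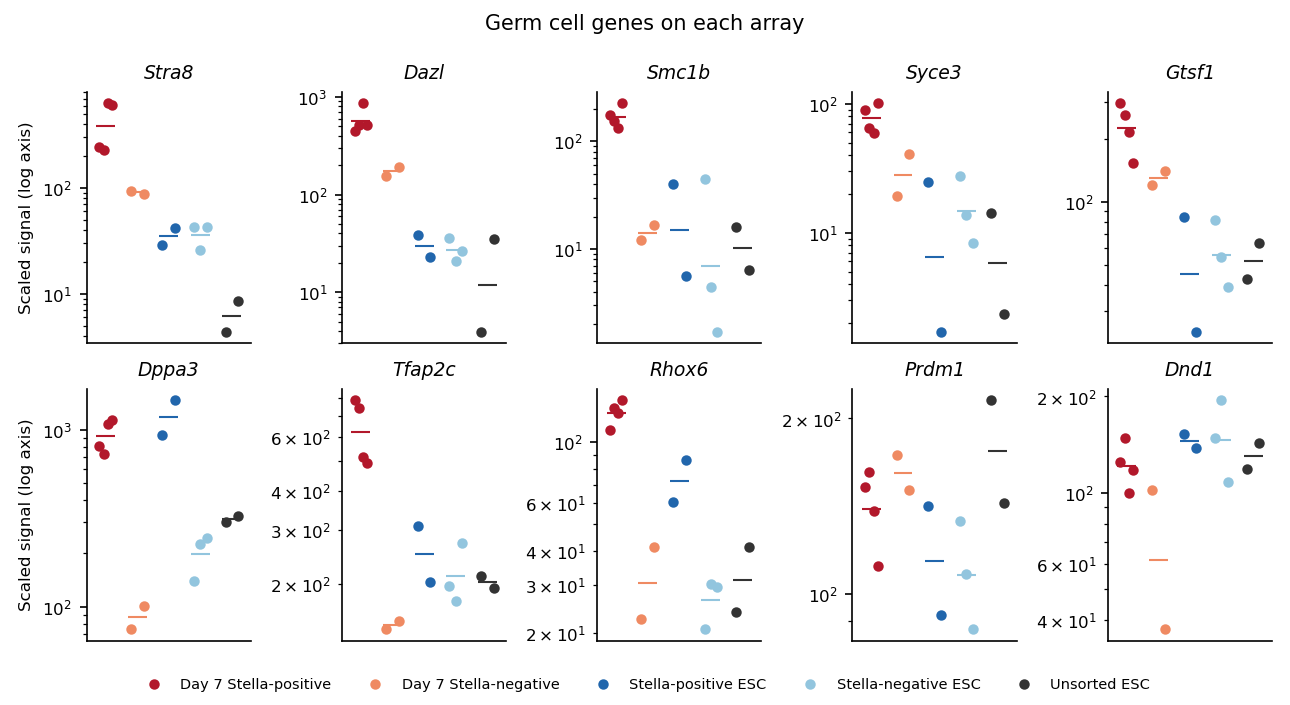
Scaled signal of germ cell genes on each of the 13 arrays (log axis, arbitrary units), with day 7 Stella-positive cells at the left and unsorted ESC at the right of each panel. Points are arrays and lines the group's mean on the log scale. Stra8, Dazl, Smc1b, Dppa3, Tfap2c and Rhox6 on the 4 day 7 Stella-positive arrays lie above both unsorted ESC arrays, while Prdm1 and Dnd1 overlap.

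The count of 10 germ cell members rested on both unsorted ESC arrays and fell to 4 without either of them. It was 6 without day 7 Stella-positive arrays 3 and 4 and 4 with the Gapdh covariate, and 6 with median centring. Smc1b was 2.76 without unsorted ESC array 2 (adjusted p = 0.0524) and so lost its call there. Dazl and Stra8 passed in the same direction under each of the 20 alternatives.

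Promoter windows are shown for the 3 germ cell genes of the naming rule, because they rose together and their promoters differ in CpG content, the substrate of DNA methylation. The windows are the 250 bases before the annotated start in RefSeq (GRCm38.p6), read 5′ to 3′ on the gene's own strand. Capitals mark CACGTG, an E-box that Myc and Max can bind, TCCCGC, a core of the E2F site, and AGGTCA, the core letters of nuclear receptor sites, each searched on both strands, and no motif overlaps another. Dazl lies at chr17:50293621-50293870 on the minus strand, Smc1b at chr15:85131958-85132207 on the minus strand and Stra8 at chr6:34920698-34920947 on the plus strand.
Dazl: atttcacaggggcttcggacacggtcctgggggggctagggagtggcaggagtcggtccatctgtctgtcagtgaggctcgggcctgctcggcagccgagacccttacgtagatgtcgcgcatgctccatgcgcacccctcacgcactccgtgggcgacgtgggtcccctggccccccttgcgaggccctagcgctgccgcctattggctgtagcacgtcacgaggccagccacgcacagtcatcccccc
Smc1b: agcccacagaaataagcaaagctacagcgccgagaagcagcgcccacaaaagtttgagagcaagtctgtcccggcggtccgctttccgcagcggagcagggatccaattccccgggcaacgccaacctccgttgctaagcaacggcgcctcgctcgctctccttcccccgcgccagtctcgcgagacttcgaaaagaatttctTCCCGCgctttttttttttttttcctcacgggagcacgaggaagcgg
Stra8: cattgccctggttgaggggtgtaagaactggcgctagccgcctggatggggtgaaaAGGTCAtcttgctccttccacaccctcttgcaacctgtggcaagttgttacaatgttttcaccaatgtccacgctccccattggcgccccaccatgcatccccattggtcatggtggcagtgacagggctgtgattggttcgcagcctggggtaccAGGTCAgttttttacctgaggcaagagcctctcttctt
The Dazl window held 20 CpG dinucleotides and the Smc1b window 25, against a median of 6 over 32851 mouse promoter windows of the same length (10th percentile 1, 90th percentile 25). The Stra8 window held 5. The letters AGGTCA occurred at 2 places in the Stra8 window and TCCCGC at 1 place in the Smc1b window, while the Dazl window held none of these motifs. CACGTG was found in 6.02% of all windows, TCCCGC in 16.9%, AGGTCA in 14.0% and any of them in 33.4%. Of the 10 germ cell genes that rose, 8 had at least 1 window and 4 of these genes held a motif, against 13 of the 17 genes with a window among the members that did not pass. These matches are descriptions of the letters and were not tested for binding.

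The Rhox homeobox genes, an X-linked cluster expressed in germ cells, gonads and placenta, and the Tex19 genes, which act against transposons in germ cells and placenta, were mostly higher. Of 6 tested members 5 were higher and 0 lower, with a median of 1.25. Rhox6 read 111, 134, 128 and 143 on the day 7 Stella-positive arrays, against 23.8 and 41.3 on the unsorted ESC arrays (1.72 ± 0.32, adjusted p = 0.0038, limma). Rhox13 read 215, 162, 167 and 137 on the day 7 Stella-positive arrays, against 12.5 and 52.5 on the unsorted ESC arrays (2.23 ± 0.48, adjusted p = 0.0102, limma). The groups did not overlap for either gene. As a ratio of signals, the 2 unsorted ESC arrays differed more from each other than the 4 day 7 Stella-positive ones. Rhox9 was higher by 1.24 ± 0.33, and Rhox5 (1.16 ± 0.31) and Tex19.1 (1.27 ± 0.35) also passed, while Tex19.2 differed by 0.83. Against Stella-positive ESC only 1 of the 6 passed, Rhox13 with 2.47, and against day 7 Stella-negative cells 4 were higher. The count of 5 was 0 without unsorted ESC array 1, 3 without array 2, 3 without day 7 Stella-positive array 1 and 2 without array 2. Rhox6 differed by 1.42 (adjusted p = 0.0751) and Rhox13 did not pass (adjusted p = 0.196) without unsorted ESC array 1, and Rhox9 was not past the test without day 7 Stella-positive array 2 or either unsorted ESC array (1.18, 1.56 and 0.92).

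The core pluripotency factors did not pass the test against unsorted ESC. Pou5f1, the gene for Oct4, read 1083, 1093, 940 and 937 on the day 7 Stella-positive arrays and 745 and 1119 on the unsorted ESC arrays (0.14 ± 0.18, adjusted p = 0.705, limma), or -0.05 with median centring, and the groups overlapped. Sox2 differed by -0.28 ± 0.21, Nanog by -0.36 ± 0.26 and Zfp42, the stem cell marker Rex1, by -0.12 ± 0.29, and none of them passed. All 4 day 7 Stella-positive arrays nevertheless lay below both unsorted ESC arrays for Sox2 (2418 to 3264, against 3433 and 3311) and for Nanog (876 to 1597, against 1684 and 1732), while Zfp42 overlapped. Over all genes, 12.5% lay below in this way. The Pou5f1 result depended on which stem cells stood as the reference, since it was lower, with -1.09 (adjusted p = 0.00114) against Stella-positive ESC. Against day 7 Stella-negative cells, Pou5f1 was higher by 1.72 and Sox2 by 1.09, while Nanog differed by 0.55 and did not pass.

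Of 28 tested pluripotency genes 0 were higher and 6 were lower, against 3.64% and 3.38% of all genes. The other 22 did not pass, and the median was -0.32. Klf4, a factor of the naive stem cell state that the cytokine LIF induces, read 461, 434, 268 and 306 on the day 7 Stella-positive arrays, against 1364 and 1064 on the unsorted ESC arrays (-1.72 ± 0.25, adjusted p = 0.00082, limma). Stat3, the transcription factor that LIF activates, read 188, 157, 262 and 235 on the day 7 Stella-positive arrays, against 918 and 540 on the unsorted ESC arrays (-1.72 ± 0.23, adjusted p = 0.000502, limma). Tdgf1, the Nodal co-receptor Cripto, read 1104, 1130, 634 and 726 on the day 7 Stella-positive arrays, against 1914 and 2678 on the unsorted ESC arrays (-1.37 ± 0.24, adjusted p = 0.00305, limma). No array of one group overlapped the other for these 3 genes. Tfcp2l1 (-1.72 ± 0.41), Klf5 (-0.93 ± 0.25) and Klf2 (-0.87 ± 0.18), chosen after their values were seen, complete the 6, and each is a factor of the naive state. The 6 calls became 4 without unsorted ESC array 1, 3 without array 2 and 1 with the Gapdh covariate. Tdgf1 was among those lost without array 2 (-1.13, adjusted p = 0.0602). Against day 7 Stella-negative cells the list went the other way, with 14 of 28 higher and 1 lower, while Klf4 itself differed by -0.07 there.

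The Nodal pathway is active in ESC and in the epiblast. Of its 14 tested members 0 were higher and 3 were lower, against 3.64% and 3.38% of all genes, and 11 did not pass. Tdgf1 was one of the 3. Lefty1, a secreted Nodal inhibitor that Nodal signalling itself induces, read 219, 213, 305 and 208 on the day 7 Stella-positive arrays, against 1698 and 1842 on the unsorted ESC arrays (-2.87 ± 0.22, adjusted p = 5.44e-06, limma). Its relative Lefty2 read 142, 105, 142 and 199.7 on the day 7 Stella-positive arrays, against 569 and 358 on the unsorted ESC arrays (-1.59 ± 0.32, adjusted p = 0.00639). Both inhibitors were lower on every day 7 Stella-positive array. The ligand Nodal differed by 0.01 and did not pass, and Gdf3, a related ligand, differed by -0.91 ± 0.28 (adjusted p = 0.0587). The count of 3 was 2 without either of the unsorted ESC arrays. Lefty2 was the call lost without array 1 (-1.26, adjusted p = 0.116) and Tdgf1 without array 2. Lefty1 was also lower against Stella-positive ESC, by -2.49, and higher against day 7 Stella-negative cells, by 0.71, both past the test.

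**Figure D3:**
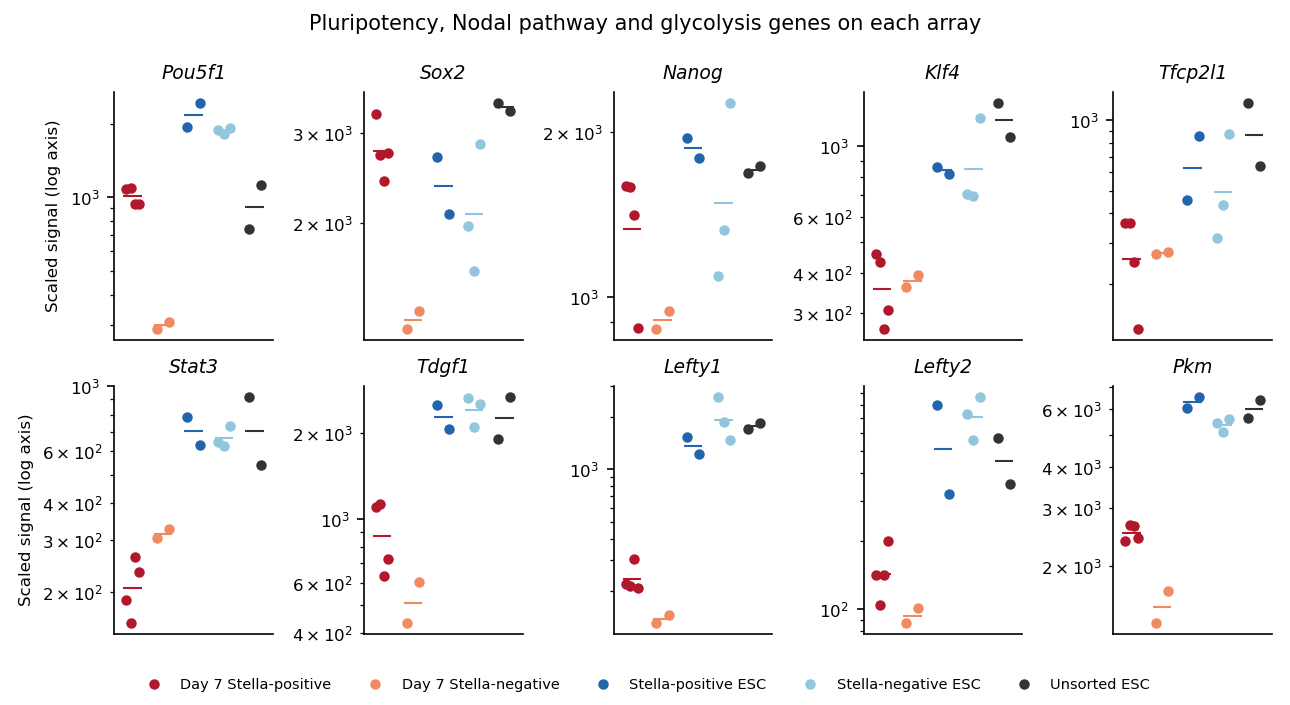
Scaled signal (log axis, arbitrary units) of 9 pluripotency and Nodal pathway genes and of the glycolytic enzyme Pkm on each of the 13 arrays; points are arrays and lines the group's mean on the log scale. Pou5f1 in day 7 Stella-positive cells overlaps the unsorted ESC and Sox2 and Nanog lie a little below them, while Klf4, Stat3, Tdgf1, Lefty1, Lefty2 and Pkm lie below them.

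Of 22 tested glycolytic and hypoxia-response genes 0 were higher and 8 were lower, against 3.64% and 3.38% of all genes. The other 14 did not pass, and the median was -0.74. Ldha, which makes lactate from pyruvate, read 1304, 1171, 672 and 584 on the day 7 Stella-positive arrays, against 3761 and 6932 on the unsorted ESC arrays (-2.52 ± 0.30, adjusted p = 0.000177, limma). Pkm, the last enzyme of glycolysis, read 2383, 2671, 2646 and 2435 on the day 7 Stella-positive arrays, against 5656 and 6403 on the unsorted ESC arrays (-1.25 ± 0.16, adjusted p = 0.000429, limma). Slc16a3, a lactate exporter, read 88.5, 130, 100 and 119 on the day 7 Stella-positive arrays, against 290 and 609 on the unsorted ESC arrays (-1.86 ± 0.36, adjusted p = 0.00497, limma). The groups did not overlap for these 3 genes. Bnip3 (-2.27), Pfkl (-1.63), Hk2 (-1.31), Pgam1 (-1.05) and Aldoa (-0.75) also passed and were chosen after their values were seen, and apart from Bnip3, a mitophagy receptor induced by hypoxia, they are glycolytic enzymes. Against Stella-positive ESC 13 members were lower and 0 higher, and against day 7 Stella-negative cells 5 were higher and 1 lower. Without unsorted ESC array 2, 2 members were lower and 1 higher, and with the Gapdh covariate 1 was lower. Slc16a3 was at -1.34 without unsorted ESC array 2 (adjusted p = 0.114).

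Enzymes of serine and one-carbon metabolism, which feed nucleotide synthesis and methylation, went the other way in part. Of 11 tested members 4 were higher and 0 lower, with a median of -0.08, against 3.64% and 3.38% of all genes. Against Stella-positive ESC 1 was higher and 3 were lower, with a median of -0.36. Psat1, an enzyme of serine synthesis, read 2347, 2102, 1857 and 1700 on the day 7 Stella-positive arrays, against 1033 and 437 on the unsorted ESC arrays (1.55 ± 0.28, adjusted p = 0.0033, limma). Its other probe set differed by 0.40 ± 0.28 and did not pass. Mthfd2, the mitochondrial folate enzyme, was higher by 1.36 ± 0.30 and Psph, the last enzyme of serine synthesis, by 1.12 ± 0.21. Phgdh, the first enzyme of that path, was higher by 1.14 ± 0.26 and was chosen after its value was seen. All 4 calls were lost without unsorted ESC array 2 and with the Gapdh covariate, and 1 was left with median centring. Of 17 oxidative stress genes 4 were higher and 0 lower, the metallothioneins Mt2 (1.07 ± 0.22) and Mt1 (0.96 ± 0.21), Sod1 (0.87 ± 0.17), a superoxide dismutase, and Gclc (0.93 ± 0.21), which starts glutathione synthesis. The other Gclc probe set differed by 0.06 ± 0.27 and did not pass. The oxidative stress count was 0 with median centring, 1 without unsorted ESC array 1, 2 without array 2 and 8 without day 7 Stella-positive arrays 3 and 4. Of 24 respiratory chain genes 2 were higher, Cox5a (0.75 ± 0.18) and Uqcrq (0.68 ± 0.16), and neither passed without unsorted ESC array 1 or array 2. No other tested probe set of either gene passed. The respiratory chain count was 0 with median centring and with the Gapdh covariate.

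The largest falls were mostly in genes of the extracellular matrix and of connective tissue cells. Tnc, the matrix glycoprotein tenascin C, read 31.3, 29.5, 3.23 and 3.52 on the day 7 Stella-positive arrays, against 3818 and 806 on the unsorted ESC arrays (-6.21 ± 0.87, adjusted p = 0.000581, limma). Dcn, the collagen-binding proteoglycan decorin, read 9.20, 7.16, 10.2 and 7.04 on the day 7 Stella-positive arrays, against 911 and 474 on the unsorted ESC arrays (-5.15 ± 0.52, adjusted p = 5.17e-05, limma). Both genes were far brighter on both unsorted ESC arrays, and array 1 was the brighter of these. The 12 largest falls also held Tm4sf1 (-5.29), a membrane protein, Mmp3 (-5.13), a matrix protease, Cd44 (-4.77), a hyaluronan receptor, Lox (-4.71), which crosslinks collagen, Thbs1 (-4.67) and Thbs2 (-4.45), secreted thrombospondins, Lce1h (-4.55), a gene of the cornified envelope, Ccl2 (-4.07), a chemokine, Anxa1 (-3.89), an annexin, and S100a6 (-3.85), a calcium-binding protein. The other tested Tm4sf1 probe set differed from unsorted ESC by -1.43 and did not pass. Against Stella-positive ESC, Lox (-1.70) and S100a6 (-2.05) were also lower past the test. The rest of the 12 did not pass there, with differences from -0.16 for Ccl2 to -1.86 for Tm4sf1. Tnc differed by -1.52 and Dcn by -0.78 there. Thbs1 was, without unsorted ESC array 1, at -3.63 (adjusted p = 0.0728) and Anxa1 at -2.92 (adjusted p = 0.0613), and the other 10 still passed.

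Of 24 tested genes of the fibroblast and feeder list, 15 were lower and 1, Tgfbi (1.57 ± 0.32, not past the test without either unsorted ESC array), higher, with a median of -1.86. Thy1, a surface protein of fibroblasts, read 45.1, 100.5, 47.3 and 94.0 on the day 7 Stella-positive arrays, against 1320 and 319 on the unsorted ESC arrays (-3.08 ± 0.43, adjusted p = 0.000599, limma). The summed signal of all 6 fibroblast markers (Col1a1, Col1a2, Col3a1, Postn, Lum and Thy1) was 177 to 349 on the day 7 Stella-positive arrays, against 4038 and 991 on the unsorted ESC arrays. It was 205 and 771 in Stella-positive ESC, 470 to 537 in Stella-negative ESC and 1207 to 1358 in day 7 Stella-negative cells. All 6 markers exceeded the array's median on both unsorted ESC arrays, while 1 did so on all 4 day 7 Stella-positive arrays and 2 on none. Against Stella-positive ESC the list had 3 members lower and 1 higher and a median of -0.15. The count of 15 was 3 without unsorted ESC array 1, 17 without array 2 and 3 with the Gapdh covariate. Fibroblasts often serve as a feeder layer for ESC, but the labels do not say whether these cultures had one, and the part of such cells in any fall described here was not tested.

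Of 18 tested interferon-stimulated genes 0 were higher, 8 were lower and 10 did not pass, with a median of -1.20. B2m, the light chain of class I antigen presentation, read 413, 517, 271 and 159 on the day 7 Stella-positive arrays, against 3480 and 1235 on the unsorted ESC arrays (-2.70 ± 0.43, adjusted p = 0.0015, limma). Ifit1, an antiviral protein, read 14.0, 2.70, 6.75 and 4.01 on the day 7 Stella-positive arrays, against 278 and 72.2 on the unsorted ESC arrays (-3.19 ± 0.49, adjusted p = 0.0011, limma). The groups did not overlap and unsorted ESC array 1, with the higher fibroblast sum, was again the brighter one. Against Stella-positive ESC 2 members were lower and 0 higher, with a median of -0.22, and B2m differed by -0.22 there (adjusted p = 0.771). The count of 8 was 3 without unsorted ESC array 1, 5 without day 7 Stella-positive array 1 and 1 with the Gapdh covariate. The part of fibroblasts in these values was not tested.

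**Figure D4:**
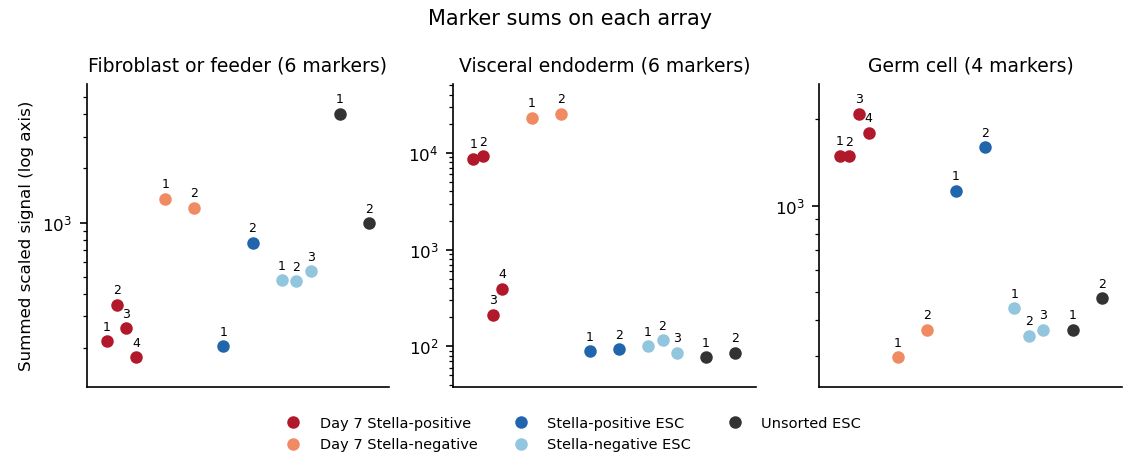
Summed scaled signal of the fibroblast, visceral endoderm and germ cell markers on each of the 13 arrays (log axis, arbitrary units); points are arrays, numbered by replicate. Fibroblast markers are highest on the unsorted ESC array 1 (4038), and visceral endoderm markers on day 7 Stella-positive arrays 1 and 2 (8721 and 9241) stand far above arrays 3 and 4 (213 and 394).

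Genes of visceral endoderm, the yolk sac layer that feeds the early embryo, rose on part of the day 7 Stella-positive arrays. Of 28 tested endoderm genes 5 were higher and 1 lower, with a median of 0.50. Afp, the fetal serum protein alpha-fetoprotein, read 2858, 2898, 49.1 and 23.8 on the day 7 Stella-positive arrays, against 0.289 and 0.497 on the unsorted ESC arrays (5.05 ± 1.29, adjusted p = 0.0257, limma). Rbp4, a retinol carrier, read 1413, 1792, 84.0 and 108 on the day 7 Stella-positive arrays, against 34.1 and 34.6 on the unsorted ESC arrays (3.20 ± 0.86, adjusted p = 0.0323, limma). Arrays 1 and 2 were far above arrays 3 and 4 for both genes. Without arrays 3 and 4 the differences were 8.05 for Afp and 5.16 for Rbp4. Neither gene passed without unsorted ESC array 1 or array 2, with an adjusted p between 0.142 and 0.167, and Rbp4 did not pass without day 7 Stella-positive array 1 (2.60) or array 2 (2.49). Ttr, the thyroxine carrier transthyretin, had the same division, with 4072, 4029, 26.4 and 73.7 on the day 7 Stella-positive arrays, against 11.1 and 16.7 on the unsorted ESC arrays (4.29 ± 1.34, adjusted p = 0.0636).

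Cubn, the endocytic receptor cubilin, was spread differently, with 122, 154, 223 and 278 on the day 7 Stella-positive arrays, against 1.29 and 4.58 on the unsorted ESC arrays (3.87 ± 0.47, adjusted p = 0.000252, limma). Its partner Amn read 40.3, 79.4, 48.7 and 136 on the day 7 Stella-positive arrays, against 21.7 and 11.5 on the unsorted ESC arrays (1.57 ± 0.39, adjusted p = 0.0221). These 2 genes were thus above both unsorted ESC arrays on all 4 arrays. Amn read 41.3 and 32.7 in Stella-positive ESC, which overlaps the day 7 Stella-positive values. It differed from Stella-positive ESC by 0.75 (adjusted p = 0.208, limma) and did not pass, while Cubn was higher by 3.12. Amn did not pass without unsorted ESC array 1 (1.85) or array 2 (1.30). Dab2, an endocytic adaptor chosen after its value was seen, was higher by 1.52 ± 0.41. Lamc1, a laminin chain of basement membranes, was lower, with -1.26 ± 0.27 at its brightest probe set and higher by 1.24 ± 0.33 at another, so its direction is not settled. The sum of the 6 visceral endoderm markers was 8721, 9241, 213 and 394 on the day 7 Stella-positive arrays, 77.0 and 85.7 on the unsorted ESC arrays and 23248 and 25476 on the day 7 Stella-negative arrays, and 5 of the 6 exceeded the median on neither unsorted ESC array. Against day 7 Stella-negative cells 22 of 28 endoderm genes were lower and 0 higher. The count of 5 higher members was 3 without day 7 Stella-positive array 1 or 2, 8 without array 3, 11 without arrays 3 and 4, 3 without unsorted ESC array 1 and 1 without array 2.

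Other somatic lists had few calls with all 4 day 7 Stella-positive arrays, and more in some without arrays 3 and 4. The shares over all genes were 3.64% higher and 3.38% lower. Hbb-y, an embryonic globin, read 152, 159, 17.2 and 0.9 on the day 7 Stella-positive arrays, against 1.51 and 0.782 on the unsorted ESC arrays (2.22 ± 0.77, adjusted p = 0.0955), the same division of arrays as for Ttr. Actc1, a cardiac actin, read 426, 480, 73.3 and 87.2 on the day 7 Stella-positive arrays, against 51.5 and 28.7 on the unsorted ESC arrays (2.05 ± 0.58, adjusted p = 0.0405), and was the 1 riser among 19 cardiac and muscle genes. The 1 member that was lower was Tagln, a smooth muscle actin-binding protein, which read 27.4, 38.8, 78.3 and 112 on the day 7 Stella-positive arrays, against 934 and 142 on the unsorted ESC arrays (-2.50 ± 0.68, adjusted p = 0.0361), or -1.19 without unsorted ESC array 1 (adjusted p = 0.497). Without day 7 Stella-positive arrays 3 and 4, 10 of the 19 were higher, and 8 with the Gapdh covariate. The blood and globin list had 0 of 14 higher and 1 lower, Cd44, and 3 higher without arrays 3 and 4. The summed heart markers were 274, 287, 124 and 123 on the day 7 Stella-positive arrays, against 83.7 and 103 on the unsorted ESC arrays. Actc1 did not pass without day 7 Stella-positive array 1 (1.69) or 2 (1.63) or without unsorted ESC array 1 (2.38) or 2 (1.72). Among 21 primitive streak and mesoderm genes 1 was lower, Mixl1, an early mesendoderm factor, which read 28.0, 1.58, 3.77 and 17.8 on the day 7 Stella-positive arrays, against 534 and 115 on the unsorted ESC arrays (-3.65 ± 0.75, adjusted p = 0.00721), or -2.59 without unsorted ESC array 1 (adjusted p = 0.159). Against day 7 Stella-negative cells 11 of these 21 were lower and 0 higher. Of 14 neural genes 4 were lower, among them the cytoskeletal genes Stmn2 (-1.26), Nefl (-1.15) and Nes (-1.11), and none was lower without unsorted ESC array 2. The direction of Nes depended on the reference. It read 273 and 278 in unsorted ESC and 40.0 and 54.3 in Stella-positive ESC. Against Stella-positive ESC, Nes was higher by 1.21 (adjusted p = 0.00801, limma). The other tested probe sets of Nes (-0.37) and Nefl (-1.13) did not pass against unsorted ESC. No member passed among 17 primed epiblast, 14 endothelial, 19 epithelial or 20 FGF pathway genes. Fgf5, the usual marker of the primed epiblast, read 49.4, 69.5, 6.08 and 3.14 on the day 7 Stella-positive arrays and 163 and 60.1 on the unsorted ESC arrays (-1.78 ± 0.64, adjusted p = 0.108).

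A pair of heat shock genes had the same division of arrays as Afp and Rbp4. Hspa1a, an inducible chaperone, read 889, 884, 77.1 and 84.2 on the day 7 Stella-positive arrays, against 32.2 and 19.8 on the unsorted ESC arrays (2.99 ± 0.78, adjusted p = 0.0289, limma), and Hspa1b was higher by 2.49 ± 0.63. These 2 genes are near-identical copies, so their probe sets may share signal. Neither passed without unsorted ESC array 1 (3.24 for Hspa1a and 2.42 for Hspa1b), array 2 (2.74 and 2.55) or day 7 Stella-positive array 1 (2.44 and 2.06), nor did Hspa1a without array 2 (2.44). The co-chaperone Dnajb1 was even across arrays at its brightest probe set, with 979, 1158, 927 and 925 on the day 7 Stella-positive arrays, against 413 and 401 on the unsorted ESC arrays (1.27 ± 0.20, adjusted p = 0.00124). Its other tested probe set differed by 0.0001 ± 0.30 and did not pass. It read 546, 581, 399 and 272 on the day 7 Stella-positive arrays and 342 and 543 on the unsorted ESC arrays. Among immediate early genes the 3 that fell were Ier3 at -1.92 ± 0.30, Fosb at -2.45 ± 0.53 and Dusp1 at -1.02 ± 0.29. Of the 23 immediate early and stress genes 4 were higher, 3 lower and 16 not past the test, with a median of 0.09. Gadd45b, a stress gene also linked to DNA demethylation, was the fourth riser at 1.45 ± 0.28. Its 2 other tested probe sets differed by 0.12 and 0.65 and did not pass. Against Stella-positive ESC, Gadd45b differed by 0.13 (adjusted p = 0.794, limma) and did not pass. Fosb (-2.05) and Dusp1 (-0.94) did not pass without unsorted ESC array 1, Dusp1 did not pass without unsorted ESC array 2 (-1.09) or day 7 Stella-positive array 3 (-0.92) or 4 (-0.90) either, and Gadd45b did not pass without unsorted ESC array 2 (1.07).

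**Figure D5:**
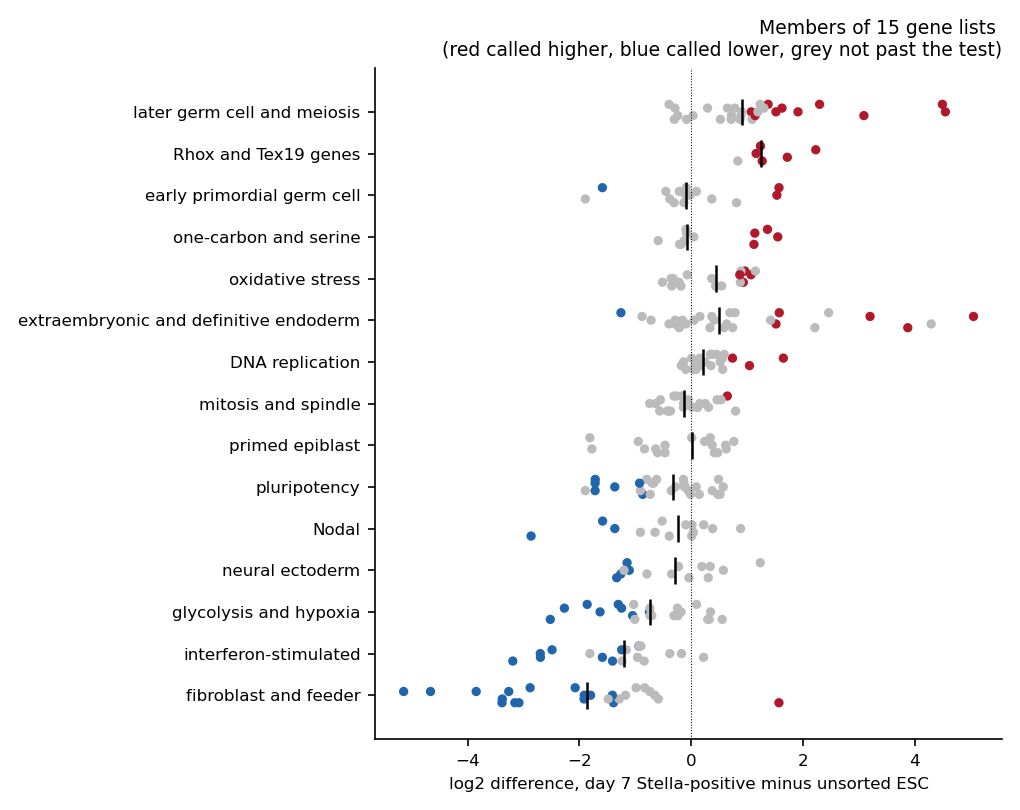
Each point is 1 tested gene of 15 lists, placed by its log2 difference, day 7 Stella-positive minus unsorted ESC; red points were called higher, blue points lower, and grey points did not pass, with black bars at each list's median. Medians run from 1.25 for the Rhox and Tex19 genes and 0.90 for the later germ cell genes to -1.86 for the fibroblast and feeder genes.

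Dnmt3b and Dnmt3l, which set up new DNA methylation, differed by 0.37 ± 0.29 and 0.23 ± 0.28 and did not pass. Of 16 DNA methylation genes 1 was higher, Gadd45b, at its brightest probe set only, and 1 lower, Apobec1 (-1.53 ± 0.42), a cytidine deaminase. Gadd45b did not pass against Stella-positive ESC (0.13). Of 26 histone methylation genes 2 were higher and 0 lower, Suz12 (1.11 ± 0.28) and Jarid2 (0.94 ± 0.22), a core subunit and a partner of Polycomb complex PRC2. At other probe sets Suz12 was higher at 1 (1.28 ± 0.27) and did not pass at 4 (0.19 to 0.77), and Jarid2 did not pass at 2 (-0.23 and 0.43). Neither gene passed with median centring. Of 27 imprinted genes 1 was higher, Dlk1 (1.57 ± 0.44), a Notch-related growth regulator, and 2 were lower, Dcn and Ascl2 (-1.48 ± 0.36), a placental transcription factor. The 2 other tested Ascl2 probe sets differed by -0.56 and -0.70 and did not pass. With so few calls, the DNA methylation, histone methylation and imprinted lists were near the shares over all genes (3.64% higher and 3.38% lower). Igf2r, the imprinted receptor that clears IGF2, read 660, 503, 460 and 558 on the day 7 Stella-positive arrays and 457 and 223 on the unsorted ESC arrays (0.74 ± 0.26, adjusted p = 0.101). Its day 7 Stella-positive values were below those of day 7 Stella-negative cells, 1218 and 1294 (-1.20, adjusted p = 0.00532). Without unsorted ESC array 1, Suz12 (1.02), Jarid2 (0.54), Dlk1 (1.32), Ascl2 (-1.33) and Apobec1 (-1.43) did not pass, and without array 2 Suz12 (1.19), Dlk1 (1.82), Ascl2 (-1.62), Apobec1 (-1.63) and Gadd45b did not. Dlk1 also did not pass without day 7 Stella-positive array 1 or 2, Apobec1 without array 2 or 3 and Suz12 without array 3.

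Uba1y, the Y-linked copy of a ubiquitin-activating enzyme expressed in the male germ line, read 564, 508, 596 and 429 on the day 7 Stella-positive arrays, against 29.4 and 46.0 on the unsorted ESC arrays (3.48 ± 0.27, adjusted p = 5.44e-06, limma). All 4 arrays were above the unsorted ESC and above the day 7 Stella-negative cells at 195 and 189, and a second probe set was higher by 1.95 ± 0.29. Xist, the RNA that silences an X chromosome in female cells, read 322, 207, 186 and 329 on the day 7 Stella-positive arrays, against 742 and 570 on the unsorted ESC arrays (-1.33 ± 0.29, adjusted p = 0.0102, limma), and its other probe set differed by -1.22 ± 0.54 without passing. Among 11 nuclear long noncoding RNAs 2 were higher and 2 lower. Malat1 was higher by 2.22 ± 0.38 at its brightest probe set and at 2 others and lower, with -1.35 ± 0.31 at another, so its direction depends on the probe set. Tug1 was lower, with -1.94 ± 0.38 at its brightest probe set, and its 2 other tested probe sets differed by -0.74 and -0.03 without passing. Against Stella-positive ESC, Xist differed by -0.16 (adjusted p = 0.74). Neither Xist (-1.14, adjusted p = 0.127) nor Tug1 (-1.90, adjusted p = 0.0589) passed without unsorted ESC array 1.

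The rest of the largest rises were genes of mixed roles. Srgn, a secretory granule proteoglycan, read 83.0, 63.2, 283 and 280 on the day 7 Stella-positive arrays, against 4.72 and 9.96 on the unsorted ESC arrays (3.14 ± 0.53, adjusted p = 0.00208), with arrays 3 and 4 the higher ones. Tmprss2, a membrane protease, read 564, 473, 89.1 and 110 on the day 7 Stella-positive arrays, against 44.2 and 9.19 on the unsorted ESC arrays (2.87 ± 0.60), with arrays 1 and 2 the higher ones, and it did not pass without unsorted ESC array 2 (2.13, adjusted p = 0.145). The 2 other tested Tmprss2 probe sets differed by 0.84 and 0.44 and did not pass. Efhc2, an EF-hand protein gene on the X chromosome, was higher by 2.68 ± 0.40 and AY036118, an unplaced transcript in the annotation, by 3.06 ± 0.39. Bcl2l11, the cell death activator Bim, read 1097, 950.3, 686 and 965 on the day 7 Stella-positive arrays, against 202 and 323 on the unsorted ESC arrays (1.79 ± 0.25, adjusted p = 0.000602), while its 4 other tested probe sets did not pass. In day 7 Stella-negative cells, Srgn read 246 and 218, Efhc2 73.0 and 41.9, AY036118 1984 and 1687 and Bcl2l11 735 and 829. Day 7 Stella-positive cells differed from these by -0.64, 0.48, 0.13 and 0.22, and none of the differences passed. Tmprss2 read 1621 and 1651 in day 7 Stella-negative cells. Day 7 Stella-positive cells were lower than that, with -2.78 (adjusted p = 0.00496, limma).

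Growth control genes gave a few calls each. Of 24 DNA replication genes 3 were higher and 0 lower, the clamp loader subunit Rfc4 (1.65 ± 0.24), the helicase subunit Mcm3 (0.74 ± 0.16) and the flap nuclease Fen1 (1.04 ± 0.29), and this count was 1 without unsorted ESC array 1. Other probe sets of Rfc4 (0.33) and Fen1 (-0.03) did not pass. For Mcm3, 1 other probe set was higher (1.04 ± 0.17) and the rest did not pass (-0.42 to 0.43). Against day 7 Stella-negative cells 17 of 24 were higher and 0 lower. Against Stella-positive ESC 2 were higher and 4 lower, and Mcm3 itself was lower there, with -0.77 (adjusted p = 0.00491, limma). Ccnd1, the G1 cyclin D1, read 438, 456, 371 and 252 on the day 7 Stella-positive arrays, against 948 and 1356 on the unsorted ESC arrays (-1.59 ± 0.24, adjusted p = 0.00112, limma). Myc, a growth regulator downstream of LIF and Wnt, was lower, with -1.51 ± 0.36. Among 23 Wnt pathway genes 3 were lower, Myc, the ligand Wnt5a (-2.26 ± 0.57) and the receptor Fzd5 (-1.03 ± 0.22). Among 22 BMP pathway genes the inhibitor Grem1 was lower, with -3.37 ± 0.61, with unsorted ESC array 1 at 1419 and array 2 at 384, and the target Id2 was higher by 1.61 ± 0.31. The 2 other tested Id2 probe sets differed by 1.36 and 0.74 and did not pass. Day 7 Stella-negative cells read 774 and 660 for Id2. Day 7 Stella-positive cells were lower than that, with -1.63 (adjusted p = 0.00249, limma). With 1 call each way, the BMP list was near the shares over all genes (3.64% higher and 3.38% lower). Among 14 retinoid pathway genes, Stra8 and Rbp4 were the 2 risers. Without unsorted ESC array 1, Mcm3 (0.63), Fen1 (0.51), Myc (-1.81), Wnt5a (-1.41), Fzd5 (-0.95), Grem1 (-2.44) and Id2 (1.59) did not pass, nor did Myc without array 2 (-1.22) or Fen1 without day 7 Stella-positive array 3 (0.93) or 4 (1.04).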

How the data were processed

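Total RNA of 13 samples was hybridised to Affymetrix Mouse430_2 arrays, 1 per sample. The authors deposited 1 intensity (signal) value per probe set and array, made with MAS5 per the submitters' processing notes; the sources used here give neither its version nor its target scale. Each array was scaled to the mean of the arrays' trimmed means (2% cut at each end), 10.5 (1/10 of that mean) was added and log2 taken. Control probe sets (64) were dropped, and the 30023 of 45037 others above the array's median on at least 2 arrays were kept. limma 3.58.1 in R 4.3.3 fitted 5 group means over all 13 arrays with a trended prior, and p-values were Benjamini-Hochberg adjusted over all 30023 probe sets; each ± in the text is the SE of a log2 difference from that fit.

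Probe sets were named from the platform annotation, with 34945 carrying 1 symbol, 932 several and 9160 none. For each gene the brightest probe set (mean scaled signal) with a single symbol was used. Named genes were the 12 largest called rises and falls without overlap between arrays, up to 3 called members per list and direction by adjusted p, and a fixed set, of which T, Hoxb1 and Snrpn were not tested. Genes outside this rule were chosen after their values were seen, and the text does not say so at each of them. The members and lists were chosen with earlier results of these data known. Groups and replicate numbers came from the titles. The deposited values hold no detection calls used here, so the number of arrays limits the precision, and 20 alternatives were run. Promoter windows came from RefSeq.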

Additional observations from a re-analysis of the deposited data

Results flagged for a closer look

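Among 120 results tested for a day 7 Stella-positive array far from the other 3, 3 stood apart by Dixon's ratio at the 95% level, where chance alone gives about 1 in 20. Lefty1 read 305.5 on array 3, against 218.9, 213.3 and 207.8 on the other 3, all still below the unsorted ESC. Mmp3 read 25.51 on array 3, against 8.991, 7.834 and 9.687 on the others. Rhox9 read 128.6 on array 2, against 108.7, 106.8 and 108.6 on the others. The division of arrays 1 and 2 from arrays 3 and 4 in endoderm and heat shock genes is not caught by this ratio, which looks for a single array.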

How the results depend on the processing

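Against 972 probe sets higher and 1123 lower, leaving out 1 array at a time gave 358 to 1026 higher and 341 to 1224 lower, with the lowest counts without an unsorted ESC array. Median centring gave 289 higher. The 6 arrays alone gave 309 higher and 379 lower, a constant prior variance 482 and 629, the hybridisation run as a random block 308 and 437, and the Gapdh covariate 290 and 191. All 7 ESC arrays as the reference gave 3669 and 3299, and Stella-positive ESC 2508 and 2228. The replicate block on the 6 arrays gave 734 and 881. The deviations of samples with the same number correlated at r = 0.00367 and 0.00267. The deviations of the 2 unsorted ESC arrays mirror each other, so these values cannot tell whether such samples share more than a number. The other alternatives, which were both constants, no filter on dim probe sets, quantile normalization, array weights and leaving out day 7 Stella-positive arrays 3 and 4, stayed within 1.5 times of both counts. Of 89 named genes that passed, 12 passed in the same direction under each of the 20 alternatives. Without unsorted ESC array 1, 44 of the 89 no longer passed, without array 2, 32, and with the Gapdh covariate 61, while 2 to 8 no longer passed without any 1 day 7 Stella-positive array. The cause was not tested. The fits that leave arrays out also have fewer arrays, and the Gapdh ratio divides all day 7 arrays from all ESC arrays without overlap.

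Values that changed sign number 54 over 22 genes, and 10 of these genes had passed. With Stella-positive ESC as the reference they were Alpl -0.357, Dnmt3l -0.642, Dppa3 -0.35, Gclc -0.141, Hmgcs1 -0.195, Mcm3 -0.769, Nes 1.213, Pou5f1 -1.093, Prdm1 0.271, Snhg3 -0.002, Sox2 0.226 and Wnt5a 0.677. With all 7 ESC arrays they were Alpl -0.161, Dnmt3l -0.29, Mcm3 -0.196, Nes 0.283, Pou5f1 -0.61, Prdm1 0.102 and Sox2 0.117. With the Gapdh covariate they were Alpl -1.847, Dnd1 0.427, Dusp1 0.049, Fgf5 1.246, Kit 0.398, Lamc1 0.026, Lin28a 1.155, Nanog 0.432, Perp 0.326, Prdm1 0.301 and Zfp42 0.802. Median centring gave Alpl -0.105 and Pou5f1 -0.052, quantile normalization Kit 0.029, and array weights Alpl -0.284, Kit 0.053 and Zfp42 0.113. With 1 array left out at a time, the values ran over -0.266 to 0.313 for Alpl, -0.216 to 0.035 for Dnd1, -0.407 to 1.156 for Dnmt3b, -0.079 to 0.549 for Dnmt3l, -0.117 to 0.117 for Kit, -0.146 to 0.435 for Pou5f1 and -0.256 to 0.053 for Zfp42. The replicate block gave Alpl -0.492, Dnd1 0.059, Kit 0.074 and Zfp42 0.257, as did leaving out day 7 Stella-positive arrays 3 and 4, which uses the same 4 arrays, and the run as a random block gave Dnd1 0.011.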
